A study of Homo sapiens with 10 samples.

Results

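ETS factors are transcription factors that share one DNA-binding domain, which reads the core sequence GGAA. The data described here are the RNA levels of 9 of these genes, ERG, ETV1, ETV4, ETV5, ETS1, ETS2, ELF3, EHF and SPDEF, taken by gene symbol from the 59386 genes counted in each of 10 libraries. All libraries came from VCaP, a prostate cancer cell line that carries a fusion of TMPRSS2 to ERG. The 2 control libraries were compared with 4 libraries transfected with siRNAs against SMARCA4, the ATPase of the SWI/SNF chromatin remodeler, and with 4 transfected with siRNAs against SMARCA1, an ATPase of the ISWI family. Each target had a pair of siRNAs with 2 libraries each, lettered A and B for SMARCA4 and A and C for SMARCA1. Cells received 30 pmol of siRNA and were harvested after 72 h. The labels do not say whether the controls were transfected, and a single cell line was used, so p-values measure the spread between these libraries, which may be technical.

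In ERG-rearranged prostate tumors the promoter of TMPRSS2, an androgen-driven gene, is joined to ERG, which luminal prostate cells otherwise keep nearly silent and endothelial cells normally use. ETV1, ETV4 and ETV5 form the PEA3 group and are fused in other prostate tumors. ETS1 and ETS2 are activated by RAS-MAPK signaling, whereas ELF3, EHF and SPDEF are the epithelium-specific ETS factors and mark differentiated glandular cells. The counts are summed over a whole gene, so reads from the fusion transcript and from an unfused ERG allele cannot be told apart.

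The targeted genes fell in the libraries that carry their names. SMARCA4 stood at 242 and 268 CPM (counts scaled to a common library total, with TMM factors) in the controls and at 13.3 to 25.2 CPM in the SMARCA4 siRNA libraries. SMARCA1 stood at 32.3 and 31.5 CPM in the controls and at 1.75 to 3.40 CPM in the SMARCA1 siRNA libraries, while it was higher with SMARCA4 siRNAs, at 57.4 to 83.8 CPM. All 10 luminal markers examined, the keratin gene KRT8 among them, were above 1 CPM in the controls. The 6 endothelial markers summed to 1.71 to 3.26 CPM per library, and FLI1, the endothelial relative of ERG, had at most 1 count in any library. Of 6 blood cell markers 2 were tested, and in each knockdown 1 rose, LYZ, and 1 fell, CD14. By edgeR at an adjusted p below 0.05, 45.1% of all genes changed in SMARCA4 knockdown and 46.8% in SMARCA1 knockdown. The 6 blood cell markers summed to 2.39 to 23.7 CPM in the knockdown libraries and to 2.34 CPM in each control, and LYZ reached 22.5 CPM. Libraries held 23898545 to 34667965 counts. The following features of the libraries touch the values below. The 30 interferon response genes examined summed to 464 and 470.1 CPM in the controls and to 17620 to 48938 CPM in the knockdown libraries, with the lowest knockdown sum in replicate 2 of SMARCA4 siRNA A. Replicate 1 of SMARCA1 siRNA A stood apart from replicate 2, with a median log2 ratio of -0.27 in the quartile of longest genes and 0.27 in that of the shortest. Of 3 basal epithelial markers, 1 was tested, KRT14, which reached 107.5 CPM in a knockdown library against 3.05 and 3.57 CPM in the controls. The 3 summed to 36.9 to 107.6 CPM in the knockdown libraries and to 3.05 and 3.60 CPM in the controls. The part of these features in the ETS results was not tested.

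RefSeq promoter windows were at hand for 6 of the 9 genes. The 250 bases before the annotated start are shown for the 3 genes that rose most clearly, with capitals marking GGAA or its reverse complement TTCC, the core that ETS factors read. All are from GRCh38.p14, written 5′ to 3′ on the strand of the gene. ELF3 is at chr1:202010337-202010586, plus strand. This RefSeq start lies inside the ELF3 gene as counted, which begins at 202007945. ETS2 is at chr21:38804933-38805182, plus strand, the first of its 2 windows. SPDEF is at chr6:34556330-34556579, minus strand.
ELF3: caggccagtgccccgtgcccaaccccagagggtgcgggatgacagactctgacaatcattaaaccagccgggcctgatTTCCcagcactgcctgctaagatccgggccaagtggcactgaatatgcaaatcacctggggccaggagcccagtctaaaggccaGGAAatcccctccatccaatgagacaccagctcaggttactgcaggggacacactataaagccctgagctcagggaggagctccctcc
ETS2: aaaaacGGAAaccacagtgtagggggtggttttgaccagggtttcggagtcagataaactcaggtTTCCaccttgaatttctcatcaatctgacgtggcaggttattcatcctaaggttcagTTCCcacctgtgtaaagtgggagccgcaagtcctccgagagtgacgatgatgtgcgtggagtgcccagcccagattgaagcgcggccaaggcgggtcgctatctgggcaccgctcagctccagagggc
SPDEF: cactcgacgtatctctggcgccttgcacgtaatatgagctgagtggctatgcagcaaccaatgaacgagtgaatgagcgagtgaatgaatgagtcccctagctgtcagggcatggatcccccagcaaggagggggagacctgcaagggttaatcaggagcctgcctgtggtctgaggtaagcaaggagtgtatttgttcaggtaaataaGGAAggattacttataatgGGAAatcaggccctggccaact
The core occurred 2 times in the ELF3 window, 3 times in this ETS2 window and 2 times in the SPDEF window, counting both strands. Such matches are common. Of 35116 windows of this length, 92.7% held at least 1, the median was 3, and 76.5% held at least the 2 of ELF3 and SPDEF. The second ETS2 window, at chr21:38805679-38805928, held 6, which 9.14% of windows matched or exceeded. The longer ETS site CCGGAAGT, searched on both strands, is in 3.42% of windows and in none of those of the 6 genes. The motif TATAAA (10.7% of windows) matched among them only in ELF3, starting 34 bases before the annotated start. These are matches of letters and say nothing about which factor is bound.

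Read per length, the 9 genes covered a wide range of levels in control cells. SPDEF led with 212 ± 18.2 RPKM (reads per kilobase of exon, scaled as CPM; mean ± SD, n = 2), followed by EHF at 70.0 ± 4.24 RPKM and ERG at 51.6 ± 0.649 RPKM. ELF3 stood at 7.93 ± 0.430 RPKM, ETS2 at 2.93 ± 0.189 RPKM and ETS1 at 0.443 ± 0.0604 RPKM. The PEA3 genes were close to silent. ETV4 stood at 0.190 ± 0.119 RPKM, ETV5 at 0.0169 ± 0.00341 RPKM and ETV1 at 0.00821 ± 0.000686 RPKM. The order was the same in each of the 5 groups by group mean, and the ranges of neighbours in the order did not overlap in controls. Ranges did overlap for EHF and ERG with SMARCA1 siRNA A, for ETS1 and ETV4 with both SMARCA1 siRNAs, for ETV4 and ETV5 with SMARCA4 siRNA B, and for ETV5 and ETV1 with siRNA A of either target.

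**Figure D1:**
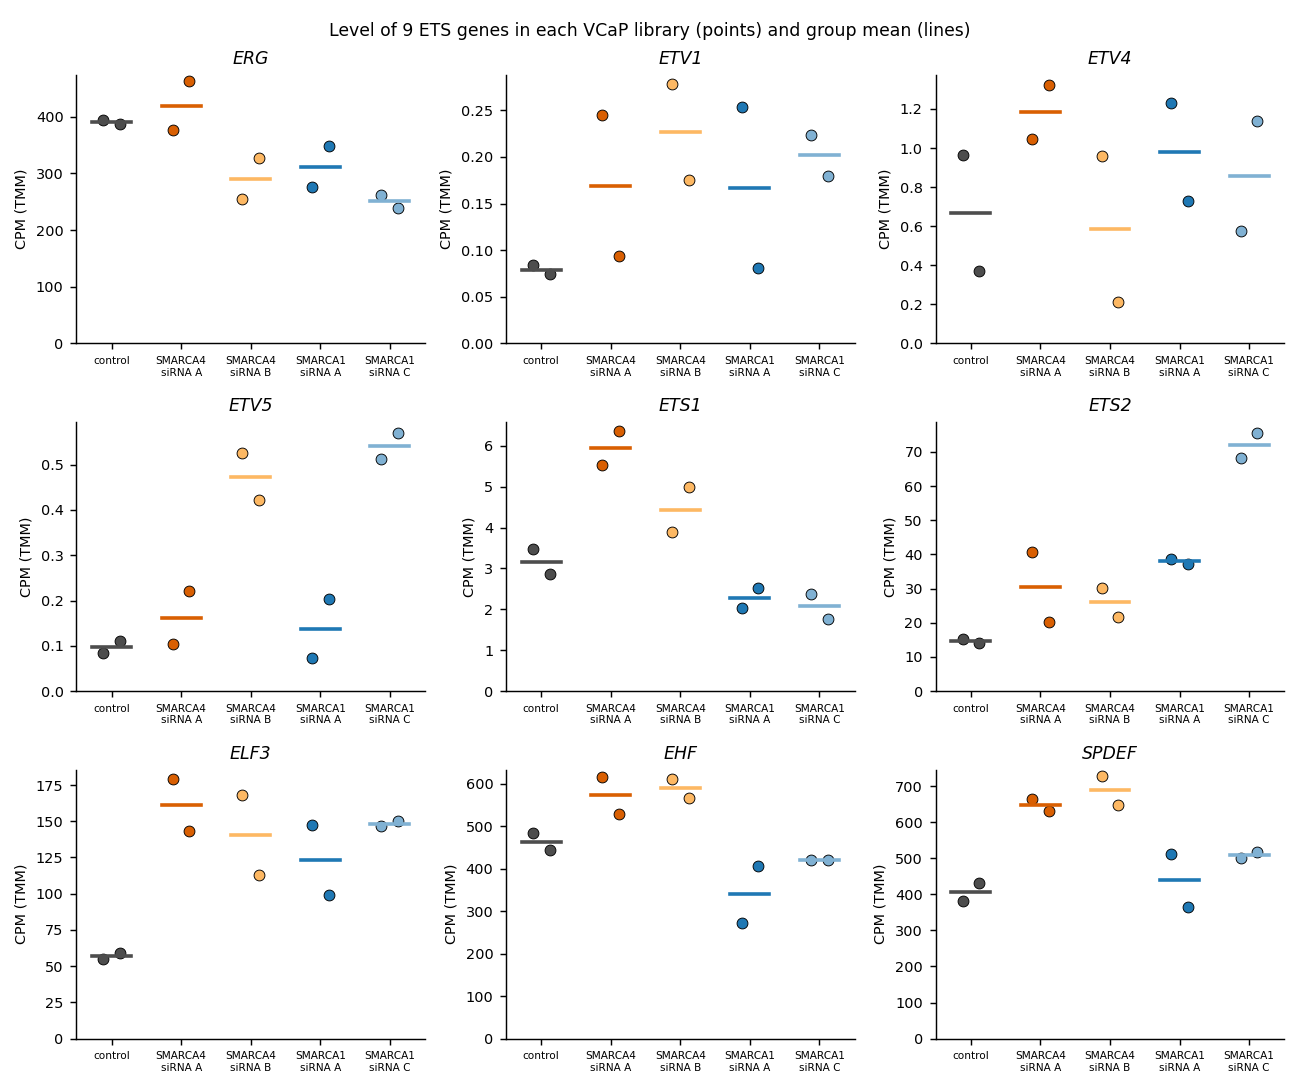
Level of each of the 9 ETS genes in CPM (y axes start at 0 and differ between panels) in the 10 libraries, by group on the x axis, with points for libraries and lines for group means. ELF3 and ETS2 lie above both controls in all 8 knockdown libraries, and ERG lies below both controls in all 4 SMARCA1 siRNA libraries.

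In SMARCA4 knockdown against control, 4 of the 8 ETS genes that could be tested rose and none fell, by edgeR's quasi-likelihood test at an adjusted p below 0.05. Over all 16899 genes tested, 45.1% passed, 22.8% higher and 22.3% lower. The genes that rose were ELF3, SPDEF, ETS2 and ETS1. Without adjustment, 5 passed upward and 0 downward, the addition being ETV5, and DESeq2 called the same number, 4. The median log2 fold change was 0.71 for the 8 genes and 0.00 for all genes. In SMARCA1 knockdown, 2 rose, ETS2 and ELF3, and 2 fell, ERG and ETS1. Here 46.8% of all genes passed, 23.8% higher and 23.0% lower, and the median over the 8 genes was 0.35. Levels of 5 of the 8 genes were above both controls in every SMARCA4 siRNA library, as were 29.5% of all genes, with 29.0% wholly below and 58.5% not overlapping either way. In SMARCA1 knockdown 2 lay wholly above and 3 wholly below, against 29.1% of all genes each way and 58.2% in all. Counted without regard to direction, the shares called thus sat near those of all genes. By direction, 4 of the 8 rose and none fell in SMARCA4 knockdown, beside 22.8% and 22.3% of all genes. That split was not tested. The 2 comparisons share the control libraries. ETV1 did not pass the filter on low counts and was not tested.

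**Figure D2:**
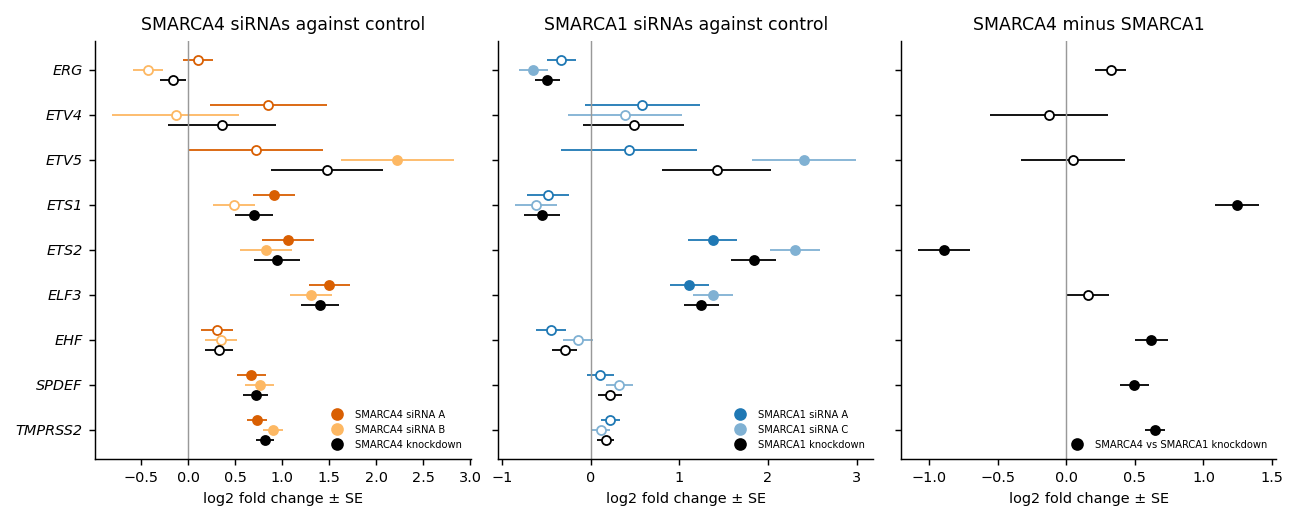
Log2 fold change ± SE (x axes) of the 8 tested ETS genes and TMPRSS2 for each siRNA and for the mean of both siRNAs against control, and for SMARCA4 minus SMARCA1 knockdown. Filled points passed an adjusted p of 0.05; ELF3 and ETS2 are filled for all 4 siRNAs, and ETS1 lies on opposite sides of 0 in the SMARCA4 and SMARCA1 panels.

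ERG (chr21:38380027-38661780, minus strand, in the build of the count files, hg38) was measured at 395 and 388 CPM in the controls. With SMARCA4 siRNA A it was 376 and 463 CPM, and with siRNA B 254 and 327 CPM. With SMARCA1 siRNA A it was 275 and 348 CPM, and with siRNA C 262 and 239 CPM. Every SMARCA1 siRNA library was thus below both controls, whereas one SMARCA4 siRNA A library was above them and the other just below. Of the SMARCA1 siRNAs, C passed alone (log2 fold change -0.64, edgeR adjusted p = 0.00937) and A did not (-0.33, adjusted p = 0.139). For both together, ERG fell to 71.4% of control in SMARCA1 knockdown (log2 fold change -0.49, SE 0.14, edgeR adjusted p = 0.0155). The call was lost without control replicate 1 (adjusted p = 0.12), control replicate 2 (0.0917) or replicate 2 of siRNA C (0.0523), with values of -0.45, -0.48 and -0.46. In SMARCA4 knockdown the value was -0.16 (SE 0.14, adjusted p = 0.364), with a 95% interval of -0.44 to 0.11. The value was 0.10 for siRNA A (adjusted p = 0.668) and -0.43 for siRNA B (adjusted p = 0.053). The siRNA B value of ERG passed with every gene with a count kept (-0.40, adjusted p = 0.0148), with a replicate block (-0.44, adjusted p = 0.0302) and in 3 of 10 fits that left out a library, which ran from -0.60 to -0.20. The siRNAs differed by 0.53 (SE 0.16, adjusted p = 0.079 in edgeR and 0.043 in DESeq2). The difference between the knockdowns was 0.32 (SE 0.11, adjusted p = 0.0507), and it passed in 7 of 8 other settings. Libraries of the knockdowns overlapped. In fits that left out a library the difference ran from 0.23 to 0.43, and whether it passed depended on the library.

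TMPRSS2, the fusion partner and a serine protease gene, stood at 154 and 158.5 CPM in the controls, and SMARCA4 siRNA A gave 271 and 248 CPM and siRNA B 281 and 301 CPM. With SMARCA1 siRNAs it was 180.0 and 184 CPM for A and 177 and 162 CPM for C. All 4 SMARCA4 siRNA libraries lay above every other library. TMPRSS2 rose by 0.82 on the log2 scale in SMARCA4 knockdown (SE 0.09, adjusted p = 0.000112), and in SMARCA1 knockdown the value was 0.17 (SE 0.09, adjusted p = 0.151). The knockdowns differed by 0.65 (SE 0.07, adjusted p = 0.000245). The CPM of ERG divided by that of TMPRSS2 was 2.57 and 2.45 in the controls and 0.904 to 1.89 in the 8 knockdown libraries, all of them lower. Exons of TMPRSS2 share 562 bases with MX1 on the other strand, an interferon gene whose counts ran from 229 to 198605. The libraries are strand-specific, but the strand setting of the counting is not given in the sources used here. MX1 stood at 4201 and 2326 CPM with SMARCA4 siRNA A, 5525 and 4951 CPM with siRNA B, 3549 and 3347 CPM with SMARCA1 siRNA A, and 6019 and 5952 CPM with siRNA C, in the same order of libraries as the TMPRSS2 values. The part of MX1 reads in the TMPRSS2 values was not tested.

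Of the 10 genes listed for the androgen response, TMPRSS2 included, 6 rose and 1 fell in SMARCA4 knockdown, and 1 rose and 4 fell in SMARCA1 knockdown. Of all genes, 22.8% rose and 22.3% fell in the former, and 23.8% rose and 23.0% fell in the latter. SLC45A3, a prostate transporter that is also a fusion partner of ETS genes, rose by 1.06 (adjusted p = 0.000335) and fell by 0.57 (adjusted p = 0.00761), respectively. FKBP5, a chaperone gene induced by androgen, rose in both, by 1.00 (adjusted p = 0.00248) and 1.03 (adjusted p = 0.00216). KLK2, a secreted kallikrein, fell in both, by 0.72 (adjusted p = 0.000644) and 0.61 (adjusted p = 0.00186).

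Genes linked to ERG-rearranged prostate cancer or to binding by ERG moved in both directions. Of 18 listed, 16 were tested. In SMARCA4 knockdown 5 rose and 5 fell, with a median log2 fold change of 0.25. In SMARCA1 knockdown 7 rose and 3 fell, with a median of 0.32. The shares of all genes called were 45.1% and 46.8%. TDRD1, a germline gene found high in ERG-positive tumors, fell by 1.00 in SMARCA1 knockdown (SE 0.16, adjusted p = 0.000931), and by 0.55 in SMARCA4 knockdown (SE 0.16, adjusted p = 0.021). PLAU, which encodes urokinase, rose by 2.53 in SMARCA4 knockdown (SE 0.59, adjusted p = 0.00592), where ARHGDIB, a regulator of small GTPases, fell by 1.503 (SE 0.13, adjusted p = 2.48e-05). PLAU had 4 and 9 counts in the controls and 18 to 85 with SMARCA4 siRNAs. PLA1A, a phospholipase, rose in both, by 0.81 (adjusted p = 0.0393) and 2.42 (adjusted p = 0.00026), as did SOX9, a developmental transcription factor, by 0.92 (adjusted p = 0.000568) and 0.77 (adjusted p = 0.00157). CXCR4, a chemokine receptor, rose by 2.54 (adjusted p = 0.00667) and ADGRF1, an adhesion receptor, by 0.97 (adjusted p = 0.0233) in SMARCA1 knockdown. CXCR4 had few counts, 1 and 2 in the controls and 6 to 15 with SMARCA1 siRNAs.

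The epithelium-specific factors include the clearest rise. ELF3 (chr1:202007945-202017183, plus strand) was measured at 54.8 and 59.1 CPM in the controls. It was 179 and 143 CPM with SMARCA4 siRNA A, 168 and 113 CPM with siRNA B, 148 and 99.1 CPM with SMARCA1 siRNA A, and 147 and 149.9 CPM with siRNA C. No knockdown library overlapped the controls. ELF3 rose 2.64-fold in SMARCA4 knockdown (log2 1.40, SE 0.20, adjusted p = 0.000402) and 2.38-fold in SMARCA1 knockdown (log2 1.25, SE 0.20, adjusted p = 0.000829), and each of the 4 siRNAs passed alone. The knockdowns differed by 0.15 (SE 0.15, adjusted p = 0.458), with a 95% interval of -0.15 to 0.45. ELF3 exons share 664 bases with ELF3-AS1 on the other strand, whose values were 0.00 (adjusted p = 0.987) and 0.23 (adjusted p = 0.205).

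SPDEF, a factor of secretory goblet and luminal cells (chr6:34537802-34556333, minus strand), was 382 and 431 CPM in the controls, 664 and 630.1 CPM with SMARCA4 siRNA A, and 728 and 649 CPM with siRNA B. With SMARCA1 siRNA A it was 513 and 366 CPM and with siRNA C 500.2 and 519 CPM, so that 1 of these 4 libraries lay below the controls. SPDEF rose 1.64-fold in SMARCA4 knockdown (log2 0.72, SE 0.14, adjusted p = 0.00213), while the value was 0.22 in SMARCA1 knockdown (SE 0.13, adjusted p = 0.205). The latter rested on single libraries. Without replicate 2 of SMARCA1 siRNA A it was 0.36 and passed (adjusted p = 0.00558). Leaving out replicate 1 of the same siRNA gave 0.0865, which did not pass. The difference of 0.50 between the knockdowns passed (SE 0.11, adjusted p = 0.00664). In a bulk library, more cells that express a gene and more RNA per cell cannot be told apart.

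EHF (chr11:34621093-34663288, plus strand) was 483 and 443 CPM in the controls, 616 and 528 CPM with SMARCA4 siRNA A, and 612 and 566 CPM with siRNA B. It was 273 and 407 CPM with SMARCA1 siRNA A and 421 and 419.8 CPM with siRNA C. The SMARCA4 siRNA libraries were all above the controls and the SMARCA1 siRNA libraries all below, yet neither comparison passed. The values were 0.33 (SE 0.15, adjusted p = 0.0993) and -0.29 (SE 0.15, adjusted p = 0.123). The difference of 0.62 between the knockdowns did pass (SE 0.12, adjusted p = 0.00361). The lowest EHF value came from replicate 1 of SMARCA1 siRNA A, which stood apart by gene length. Without it the SMARCA1 value was -0.16 (adjusted p = 0.152). Leaving out replicate 2 in its place gave -0.42, which passed (adjusted p = 0.0028). The SMARCA4 value passed without either, at 0.34 (adjusted p = 0.00685) and 0.36 (adjusted p = 0.00497). With every gene with a count kept, EHF passed in both knockdowns, at 0.35 (adjusted p = 0.0127) and -0.29 (adjusted p = 0.0409), and with only the libraries compared it passed in SMARCA4 knockdown (0.33, adjusted p = 0.0174).

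Of 8 secretory genes linked to SPDEF in glandular epithelia, 6 were tested. In SMARCA4 knockdown 4 rose and 0 fell, and in SMARCA1 knockdown 5 rose and 0 fell, by edgeR. Their medians were 0.91 and 1.30. Of all genes, 22.8% rose and 22.3% fell in SMARCA4 knockdown, and 23.8% rose and 23.0% fell in SMARCA1 knockdown. TFF1, a trefoil peptide, rose by 2.84 (SE 0.63, adjusted p = 0.00454) and 4.34 (SE 0.68, adjusted p = 0.000731). The disulfide isomerase gene AGR2 rose by 1.03 (adjusted p = 0.00158) and 0.93 (adjusted p = 0.00291), and its relative AGR3 rose in both, by 0.84 (adjusted p = 0.044) and 1.77 (adjusted p = 0.00132). CREB3L1, a secretory pathway regulator, rose by 0.98 (adjusted p = 0.00409) and 1.45 (adjusted p = 0.00057). TFF3, another trefoil peptide, rose by 1.15 in SMARCA1 knockdown (adjusted p = 0.00433). AGR3, CREB3L1, TFF1 and TFF3 were higher in SMARCA1 than in SMARCA4 knockdown, the opposite order to SPDEF.

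The MAPK-activated pair split. ETS2 (chr21:38805183-38824955, plus strand) was low in the controls, at 15.3 and 13.9 CPM. It was 40.8 and 20.2 CPM with SMARCA4 siRNA A, 30.1 and 21.8 CPM with siRNA B, 38.5 and 37.3 CPM with SMARCA1 siRNA A, and 68.1 and 75.7 CPM with siRNA C. All 8 knockdown libraries were above both controls and siRNA C gave the highest values. ETS2 rose 3.58-fold in SMARCA1 knockdown (log2 1.84, SE 0.26, adjusted p = 0.000405) and 1.93-fold in SMARCA4 knockdown (log2 0.95, SE 0.25, adjusted p = 0.011). The knockdowns differed by -0.89 (SE 0.19, adjusted p = 0.00572). The SMARCA4 call was lost without control replicate 1 (adjusted p = 0.0557) or 2 (adjusted p = 0.0797). The ETS2 value was 0.69, still past the threshold, without replicate 1 of SMARCA4 siRNA A and 1.19 (adjusted p = 0.000292) without replicate 2, the library with the lowest interferon sum. For siRNA A alone it was 1.06 (adjusted p = 0.0152), and 0.51 (adjusted p = 0.0994) without its replicate 1.

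ETS1 (chr11:128458761-128587558, minus strand), at 3.47 and 2.86 CPM in the controls, moved in opposite directions. It was 5.52 and 6.35 CPM with SMARCA4 siRNA A, 3.89 and 4.98 CPM with siRNA B, 2.02 and 2.52 CPM with SMARCA1 siRNA A, and 2.37 and 1.77 CPM with siRNA C. Libraries of each knockdown fell wholly on one side of the controls. On the log2 scale, SMARCA4 siRNA A passed alone (0.91, edgeR adjusted p = 0.0112) and B did not (0.49, adjusted p = 0.103). Neither SMARCA1 siRNA passed alone, with -0.48 for A (edgeR adjusted p = 0.144) and -0.61 for C (adjusted p = 0.0566). ETS1 rose 1.62-fold in SMARCA4 knockdown (log2 0.70, SE 0.20, adjusted p = 0.0161), a call lost without control replicate 2 (adjusted p = 0.135). It fell to 68.5% of control in SMARCA1 knockdown (log2 -0.55, SE 0.20, adjusted p = 0.0485). That call sits at the threshold. It passed in 3 of 8 other settings and in 2 of the 10 fits that left out a library, and DESeq2 gave an adjusted p of 0.0795. The difference between the knockdowns was firmer, at 1.24 (SE 0.16, adjusted p = 0.000442), and no SMARCA4 siRNA library overlapped a SMARCA1 siRNA library.

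Early and feedback targets of RAS-MAPK signaling did not move as one. Of 13 tested, 5 rose and 1 fell in SMARCA4 knockdown, and 3 rose and 3 fell in SMARCA1 knockdown, with medians of 0.04 and 0.01. The shares of all genes called were 45.1% and 46.8%. EGR1, an immediate early factor, rose by 2.68 (SE 0.19, adjusted p = 9.24e-06) and 2.87 (SE 0.19, adjusted p = 8.34e-06). DUSP5, a nuclear ERK phosphatase, rose by 1.497 (adjusted p = 0.00525) and 3.02 (adjusted p = 0.000157), whereas DUSP4 fell by 1.23 (adjusted p = 0.000995) and 1.19 (adjusted p = 0.00121). DUSP6, the cytoplasmic ERK phosphatase, rose by 1.07 in SMARCA4 knockdown (adjusted p = 0.000831), and FOSL1, an AP-1 subunit, by 1.82 in SMARCA1 knockdown (adjusted p = 0.00875). FOSL1 had 4 and 9 counts in the controls and 21 to 36 with SMARCA1 siRNAs.

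The PEA3 genes had few counts. ETV5 (chr3:186046314-186110318, minus strand) had 2 and 3 counts in the controls, 3 and 7 with SMARCA4 siRNA A, 17 and 12 with siRNA B, 2 and 5 with SMARCA1 siRNA A, and 16 and 19 with siRNA C. The higher counts thus came from 1 siRNA of each target. Neither knockdown passed (SMARCA4 1.47, SE 0.60, adjusted p = 0.0684; SMARCA1 1.42, SE 0.62, adjusted p = 0.0817), while siRNA B alone (2.22, adjusted p = 0.0127) and siRNA C alone (2.41, adjusted p = 0.00783) did. The siRNA B call of ETV5 was lost without replicate 1 of siRNA B (adjusted p = 0.0696), control replicate 1 (0.0811) or control replicate 2 (0.0598), and the siRNA C call without control replicate 1 (0.062). The ratio of pooled counts, each scaled to library total, was 3.27 for SMARCA4 (95% interval of counting error alone 1.29 to 10.6) and 3.65 for SMARCA1 (1.45 to 11.8). Exons of ETV5 share 164 bases with DGKG on the same strand.

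ETV1 (chr7:13891229-13991425, minus strand) had 2 counts in each control, 7, 3, 9 and 5 counts in the SMARCA4 siRNA libraries and 7, 2, 7 and 6 in the SMARCA1 siRNA libraries. The pooled ratios were 2.51 (0.864 to 9.97) and 2.39 (0.812 to 9.55), so that no difference was detectable at this depth. ETV4 (chr17:43527844-43579620, minus strand) had 23 and 10 counts in the controls, 30, 42, 31 and 6 counts in the SMARCA4 siRNA libraries and 34, 18, 18 and 38 in the SMARCA1 siRNA libraries. Libraries of both knockdowns overlapped the controls. Its values were 0.36 (SE 0.57, adjusted p = 0.641) and 0.49 (SE 0.57, adjusted p = 0.504). Exons of ETV4 share 68 bases with DHX8 on the other strand, a gene with 1961 to 3706 counts per library. The part of DHX8 reads in the ETV4 counts was not tested.

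Between the knockdowns themselves, where no control enters, 4 of the 8 ETS genes differed, 3 higher in SMARCA4 knockdown (ETS1, EHF and SPDEF) and 1 lower (ETS2). Over all genes 35.4% differed, 16.3% higher and 19.1% lower. Libraries of 3 of the 8 genes did not overlap, all higher, against 13.0% of all genes higher and 26.7% in all. Between siRNAs of 1 target, edgeR called 0 of the 8 genes for SMARCA4 siRNA A against B, where 6.20% of all genes passed (3.04% higher, 3.17% lower), and 0 for SMARCA1 siRNA A against C, where 0.0118% did. At an unadjusted p below 0.05 there were 2 in each, ETV5 and ERG, and ETV5 and ETS2. DESeq2 called 1 in each, ERG (0.53) and ETS2 (-0.92, adjusted p = 0.0288). Against control, SMARCA4 siRNA A called 4 genes (33.2% of all genes), siRNA B 4 (45.0%), SMARCA1 siRNA A 2 (34.8%) and siRNA C 4 (45.3%).

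The rest of the ETS family included the largest fold changes among the 22 ETS genes tested, those of ETV7. Of 19 others, 14 were tested, since FLI1, ETV3L, SPI1, SPIB and SPIC were too low. In SMARCA4 knockdown 7 rose and 1 fell, with a median of 0.40, and in SMARCA1 knockdown 4 rose and 2 fell, with a median of 0.24, beside the 45.1% and 46.8% of all genes called. ETV7, a repressor induced by interferon, was 0.878 and 0.409 CPM in the controls and 28.3 to 102 CPM in the knockdown libraries. It rose by 6.72 (SE 0.44, adjusted p = 5.78e-06) and 6.58 (SE 0.44, adjusted p = 7.99e-06). ELF1, an activator in immune and epithelial cells, rose by 2.03 (SE 0.22, adjusted p = 8.55e-05) and 1.77 (SE 0.22, adjusted p = 0.000218). The repressor ETV6, close kin of ETV7, rose by 1.70 (SE 0.16, adjusted p = 3.6e-05) and 1.39 (SE 0.16, adjusted p = 0.000141).

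ELF4, kin of ELF1, rose by 0.87 in SMARCA4 knockdown (SE 0.26, adjusted p = 0.019) and by 2.503 in SMARCA1 knockdown (SE 0.26, adjusted p = 8.53e-05), and the knockdowns differed by -1.64 (adjusted p = 0.000208). GABPA, the DNA-binding subunit of GABP, fell by 0.77 (adjusted p = 0.00978) and 0.74 (adjusted p = 0.012). ELK3, a ternary complex factor, rose by 0.68 in SMARCA4 knockdown (adjusted p = 0.00493), and ELF5, an epithelial factor, fell by 0.89 in SMARCA1 knockdown (adjusted p = 0.0129). All 30 interferon response genes rose in both knockdowns as well, with medians of 7.56 and 7.84. The part of this response in the changes of the ETS genes was not tested.

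**Figure D3:**
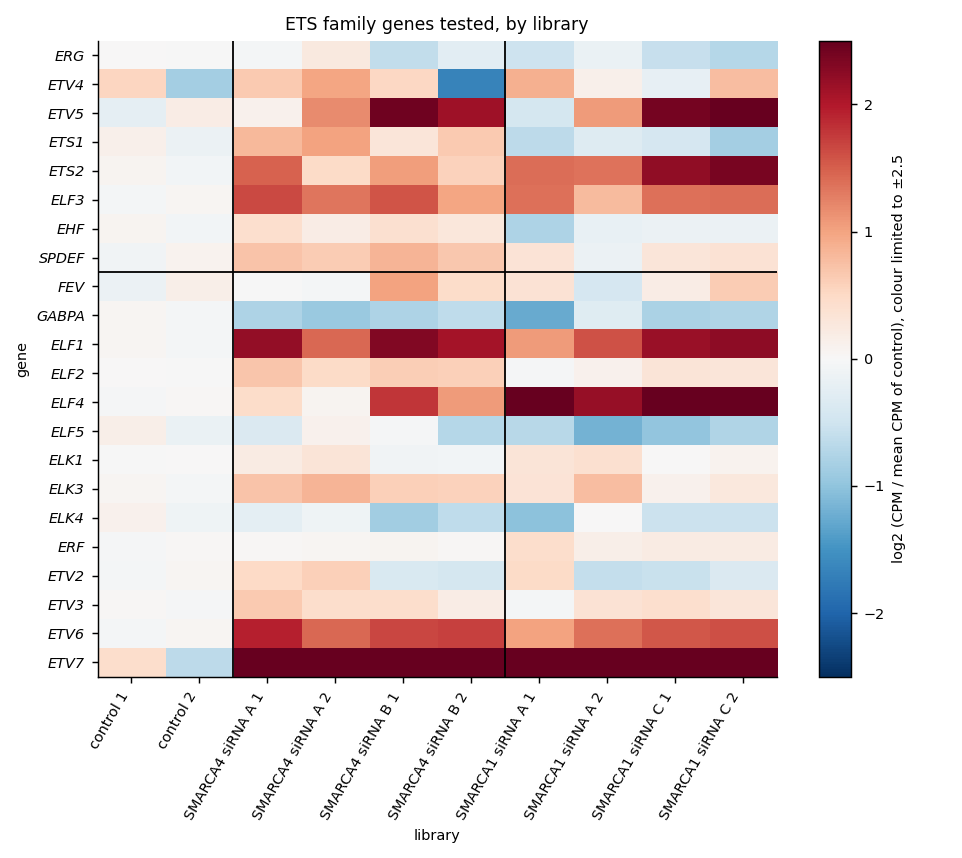
Log2 ratio of each library's CPM to the mean CPM of the controls (colour, limited to ±2.5) for the 22 ETS family genes tested (the 8 described in detail above the line) in the 10 libraries. ETV7 is at the upper colour limit in all 8 knockdown libraries, and ELF1 and ETV6 are high in all of them.

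Of 9 genes that act on ETS proteins or their transcription, all tested, 3 rose and 2 fell in SMARCA4 knockdown, and 3 rose and 1 fell in SMARCA1 knockdown. The shares of all genes called were 45.1% and 46.8%. TRIM25, a ubiquitin ligase that acts on ERG and is induced by interferon, rose by 1.86 (SE 0.15, adjusted p = 1.67e-05) and 1.37 (SE 0.15, adjusted p = 9.97e-05). SPOP, the ligase adaptor that recognises ERG, rose by 0.39 (adjusted p = 0.0168) and 0.68 (adjusted p = 0.00104). CIC, a repressor of the PEA3 genes, rose by 0.69 (adjusted p = 0.000314) and 0.57 (adjusted p = 0.00102). CUL4A, a cullin scaffold, fell by 0.34 (adjusted p = 0.0232) and 0.51 (adjusted p = 0.00276).

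ERG and TMPRSS2 lie 2802519 bases apart on chromosome 21, and the fusion joins across this interval. It holds 54 genes, of which 18 were tested, ETS2 among them. In SMARCA4 knockdown 10 rose and 3 fell, and in SMARCA1 knockdown 9 rose and 2 fell, with medians of 0.69 and 0.40. Of all genes, 22.8% rose and 22.3% fell in the former, and 23.8% rose and 23.0% fell in the latter. MX2, an interferon gene 2.7 Mb from the highest coordinate of ERG, its 5′ side, rose by 7.86 (SE 0.57, adjusted p = 9.86e-06) and 8.19 (SE 0.58, adjusted p = 1.09e-05). DSCAM, a cell adhesion gene, rose by 2.44 (SE 0.16, adjusted p = 5.52e-06) and 2.29 (SE 0.16, adjusted p = 9.39e-06). LINC00114, the tested gene of this interval nearest to ERG, had 0 and 1 counts in the controls and 5 to 56 in the knockdown libraries. AP001610.5 had 0 counts in both controls and 69 to 664 in the knockdown libraries.

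**Figure D4:**
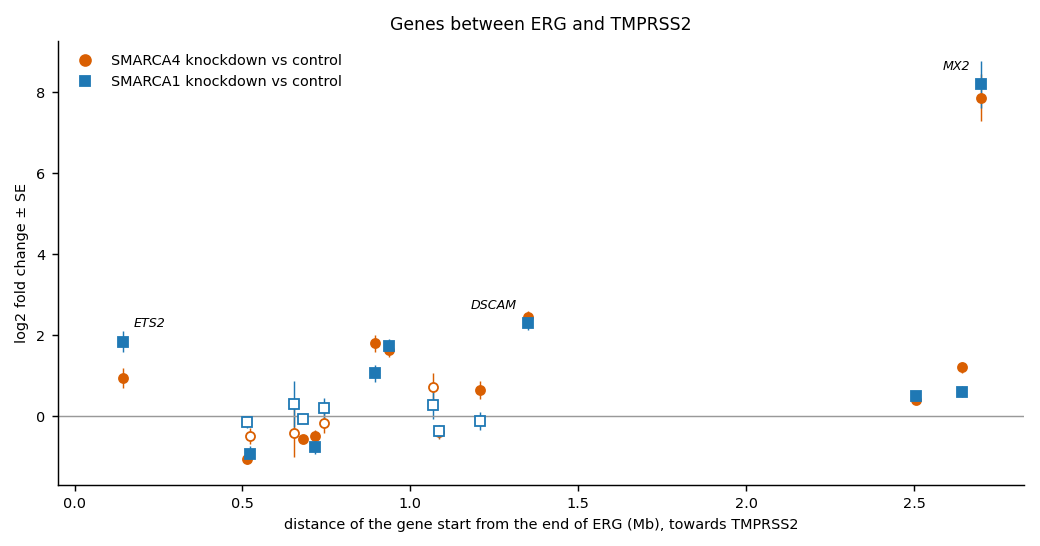
Log2 fold change ± SE (y axis) of 16 tested genes between ERG and TMPRSS2 against the distance of the gene start from the end of ERG in Mb (x axis), with circles for SMARCA4 and squares for SMARCA1 knockdown and filled symbols for an adjusted p below 0.05. Start and end are the lowest and highest coordinates whatever the strand, so the end of ERG is its 5′ side. LINC00114 and AP001610.5 are left out because their control counts were 0 or 1. MX2 lies far above the others, at 7.86 and 8.19.

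Across the 10 libraries, the genes whose log2 CPM followed ERG most closely by Pearson r were FAM234B (0.979), C1orf198 (0.978), PCAT14 (0.975), MPP7 (0.975) and COX20 (0.972). PCAT14 is a prostate lncRNA. For ETS2 they were FAS (0.988), TARS1 (0.987) and CNN3 (0.985), for ELF3 SLC52A3 (0.984), ADM (0.983) and EDN1 (0.983), and for EHF TLK1 (0.988), MIER3 (0.978) and CCNT2 (0.978). SPDEF was followed by ARSA (0.981), IRX3 (0.979) and SSTR5-AS1 (0.977), and ETS1 by HHAT (0.975), POU2F2 (0.974) and RBMS1 (0.971). For ETV4 and ETV5, which had few counts, the closest were RP11-80A15.1 (0.929), RP11-680F20.10 (0.880) and HYDIN (0.873), and SAP130 (0.927), STXBP3 (0.927) and RP11-16G12.1 (0.925). The points of these correlations share their libraries and the 5 groups, and the genes are the closest of 16899. Among pairs of the tested ETS genes described in detail, r by the same measure was lowest for ERG and ETS2 (-0.73) and highest for ETS1 and EHF (0.79).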

How the data were processed

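RNA was poly(A)-selected, made into strand-specific libraries and sequenced by the authors, who aligned the reads with HISAT2 2.1.0 to hg38 and counted them per gene with featureCounts 1.5.2 on a GENCODE annotation whose release is not given in the sources used here. The deposited values are raw read counts per gene, 1 column per library, so a read from the fusion and one from an intact ERG allele count alike. From these counts, edgeR 4.0.16 (R 4.3.3) gave TMM-scaled CPM, RPKM with the exon length in the count files, and quasi-likelihood tests in 1 fit over all 5 groups. Genes were kept by filterByExpr, which left 16899 of 59386, and p-values were adjusted over all of them by Benjamini-Hochberg at 0.05. Intervals of a log2 fold change are 1.96 SE either side. Intervals on pooled counts cover counting error only. The fit was tested on simulated data with changes in the SMARCA4 siRNA libraries. It called 75% of genes changed by 1 on the log2 scale and 91% of those changed by 2. Of unchanged genes it called 0.0798%. Changes smaller than 1, the size of many values above, were not simulated.

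The members and gene lists were chosen with earlier results of these data known. Named from the other ETS genes were those called and moved the same way by both siRNAs of a target, up to 6 per knockdown by size of change. From every other list and from the genes between ERG and TMPRSS2 up to 4 per knockdown were named alike, apart from the interferon and marker lists, which are given as sums and counts. For each tested ETS gene the 3 genes of highest Pearson r, 5 for ERG, were named. Some genes that these rules name are not reported here. Alternatives were DESeq2 1.42.0, other scalings, other filters, a replicate block, fits of only the libraries compared and fits leaving out each library.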

Additional observations from a re-analysis of the deposited data

Results flagged for a closer look

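Among the 4 SMARCA1 siRNA libraries, 1 library lay far from the others for 4 genes, measured as the gap to its nearest neighbour over the whole range, by Dixon's criterion. Replicate 2 of siRNA A was lowest for ELF3 (0.944) and SPDEF (0.879) and stood apart for TFF1 (0.837), and replicate 1 of siRNA A was lowest for EHF (0.905). These were 4 of 98 groups of 4 libraries examined, and chance alone marks about 1 in 20.

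The response to SMARCA4 knockdown differed from that to SMARCA1 knockdown, by edgeR at an adjusted p below 0.05, for 21 of 47 named genes, 4 of them among the 8 tested ETS genes described in detail, beside 35.4% of all genes. Most of the 47 were named because a comparison with control had called them. The differences below are log2 fold changes, SMARCA4 minus SMARCA1. Of the ETS family, ETS1 (1.24), EHF (0.62), SPDEF (0.50) and ELF5 (0.68) were higher in SMARCA4 knockdown, and ETS2 (-0.89) and ELF4 (-1.64) were lower. Of the androgen response, TMPRSS2 (0.65) and SLC45A3 (1.62) were higher. Among the ERG-linked genes, PLAU (1.25) and TDRD1 (0.45) were higher and PLA1A (-1.61) and ARHGDIB (-1.70) lower. Of the MAPK targets, DUSP6 was higher (0.81) and DUSP5 lower (-1.52). TRIM25 was higher (0.48) and SPOP lower (-0.29). The secretory genes AGR3 (-0.93), TFF1 (-1.51), TFF3 (-0.86) and CREB3L1 (-0.47) were lower, as was LINC00114 (-0.996), between ERG and TMPRSS2.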

How the results depend on the processing

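In fits that each dropped 1 library, the number of the 8 tested ETS genes called was 2 to 5 in SMARCA4 knockdown, 2 to 6 in SMARCA1 knockdown and 4 to 5 between the knockdowns. It was 0 to 1 between SMARCA4 siRNAs A and B, 0 to 2 between SMARCA1 siRNAs A and C, and, against control, 2 to 5 for SMARCA4 siRNA A, 2 to 6 for siRNA B, 2 to 4 for SMARCA1 siRNA A and 2 to 6 for siRNA C. For the other ETS genes it was 5 to 9, 4 to 9 and 2 to 10 in SMARCA4 knockdown, SMARCA1 knockdown and between them. DESeq2, and edgeR on every gene with a count, each called 1 gene between SMARCA4 siRNAs and 1 between SMARCA1 siRNAs, against 0, and with every gene kept 5 other ETS genes, against 3, differed between the knockdowns. The causes were not tested. ELF3 kept its call against control in both knockdowns, and SPDEF in SMARCA4 knockdown, without any 1 library. By CPM in place of RPKM, 7 of the 9 genes kept their place in the order in the controls. Depth limits ETV1, ETV4 and ETV5.

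Values that changed sign without a library were as follows on the log2 scale, and of these only SPDEF with SMARCA1 siRNA A was called in such a fit (0.38, adjusted p = 0.0187, without replicate 2 of that siRNA). In SMARCA4 knockdown ETV4 ran from -0.34 to 1.21, and in SMARCA1 knockdown from -0.0432 to 1.33. Between the knockdowns ETV4 ran from -0.85 to 0.21 and ETV5 from -0.26 to 0.49. Between SMARCA4 siRNAs ETS2 ran from -0.36 to 0.64, ELF3 from -0.0532 to 0.50 and EHF from -0.16 to 0.0555. Between SMARCA1 siRNAs ETV4 ran from -0.22 to 0.77, ETS1 from -0.0599 to 0.39, ELF3 from -0.56 to 0.0216 and SPDEF from -0.46 to 0.0383. Against control, ERG with SMARCA4 siRNA A ran from -0.0272 to 0.28, ETV4 with siRNA B from -1.57 to 0.71, ETV5 and SPDEF with SMARCA1 siRNA A from -0.38 to 1.02 and -0.14 to 0.38, and ETV4 with siRNA C from -0.19 to 1.22.

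With a replicate block, 4 ETS genes were called in SMARCA4 knockdown, 3 in SMARCA1 knockdown, 5 between the knockdowns, 0 between siRNAs of either target, and 4, 5, 2 and 4 for SMARCA4 siRNAs A and B and SMARCA1 siRNAs A and C against control, with 8, 6 and 3 other ETS genes in the first 3. The deviations of same-numbered libraries correlated from -0.103 to 0.362 between groups, so the numbers were not taken as pairing. With the control numbers crossed, added after seeing the data, SMARCA1 siRNA A called 2.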
